A study of Homo sapiens with 6 samples.

Results

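Voltage-gated sodium channel genes were examined in the human colorectal adenocarcinoma line SW480, with and without knockdown of MORC2, a nuclear ATPase of the MORC family that acts on chromatin. The 7 members were SCN1A, SCN2A, SCN3A, SCN4A, SCN8A and SCN9A, which encode pore-forming alpha subunits, and SCN3B, which encodes an accessory beta subunit. They were found by gene symbol among the 56303 genes of the count table, and all 7 were present. The members were selected on the log2 fold changes and counts of the same shMORC2 and shCtrl libraries, with those results in view, so their differences between the groups are described with their errors and carry no p-value. The SCN genes SCN7A, SCN10A, SCN11A, SCN2B and SCN4B, 5 in all, served for comparison.

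Both groups were SW480 cells infected with lentivirus and kept under puromycin. The 3 shCtrl libraries carried a nonsilencing hairpin, with the genotype given as WT, and the 3 shMORC2 libraries carried a hairpin against MORC2. The study's methods describe stable clonal lines and replicate experiments, and the labels name no second hairpin and no separate culture for each library, so the p-values below measure only the spread between these libraries, and an effect of the knockdown and a difference between the selected lines cannot be told apart. Stranded mRNA libraries were sequenced and counted per gene, and a deposited table of alternative splicing events was searched for the same genes.

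A voltage-gated sodium channel opens when the membrane depolarizes and lets sodium into the cell, which produces the rising phase of the action potential in neurons and in skeletal and heart muscle. The alpha subunit alone forms the pore, senses voltage and binds tetrodotoxin in the sensitive subtypes, while beta subunits alter gating and surface delivery and act as adhesion molecules. Cells of epithelial tumors do not fire action potentials as nerve and muscle do, yet sodium channel transcripts have been described in several cancers.

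The libraries held 42092664 to 43434425 counts each, and a gene without counts lay under a floor of 3 counts, or 0.0676 to 0.0729 CPM (counts scaled to library depth). MORC2 had 2021, 1964 and 2007 counts in shCtrl and 1554, 1219 and 1157 counts in shMORC2, with no overlap. It fell from 47.1 ± 1.47 to 30.5 ± 4.06 CPM (SD, n = 3), a log2 fold change of -0.63 (SE 0.10, adjusted p = 0.000216 in edgeR's quasi-likelihood test with Benjamini-Hochberg adjustment). Of the 21005 genes with enough counts to test, 39.5% had an adjusted p under 0.05, 19.9% higher and 19.6% lower in shMORC2, and the median log2 fold change of all genes tested was -0.00557. Epithelial identity was checked with KRT8, KRT18, EPCAM and VIL1, which stood at 15368, 5180, 478 and 675 CPM in shCtrl, while the intestinal factor CDX1 had at most 4 counts in any library.

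The 7 members were weakly expressed in both groups, and the 3 alpha subunit genes SCN8A, SCN9A and SCN3A made up most of their transcripts in shMORC2. On the length-corrected RPKM scale (CPM per kilobase of exon), SCN8A stood highest of the members in shCtrl at 0.450 ± 0.0207 RPKM and SCN9A next at 0.296 ± 0.0149 (SD, n = 3), and their ranges did not overlap. Below them came SCN4A at 0.0842 ± 0.0518, SCN3B at 0.0359 ± 0.0121 and SCN3A at 0.0304 ± 0.0197 RPKM. The range of SCN3A overlapped those of SCN4A and SCN3B, while the lowest SCN4A library (0.0519) lay above the highest of SCN3B (0.0452). SCN1A and SCN2A were lowest among the members, with means of 0.000647 and 0.000993 RPKM in shCtrl. SCN7A, SCN11A and SCN2B had no count in any of the 6 libraries. In bulk RNA, expression in fewer cells and a lower level per cell cannot be told apart.

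In shMORC2 the order of the levels differed. SCN8A stood at 0.888 ± 0.111 RPKM, SCN9A at 0.506 ± 0.0881 and SCN3A at 0.446 ± 0.139 RPKM (SD, n = 3). SCN9A and SCN3A were not separated beyond their spread there. SCN3A, one of the weak genes in shCtrl, lay beside SCN9A in shMORC2. SCN3B, SCN4A, SCN1A and SCN2A were at 0.0523, 0.0510, 0.0244 and 0.0107 RPKM. The 7 members together summed to 0.898 ± 0.0561 RPKM in shCtrl and 1.98 ± 0.319 RPKM in shMORC2.

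**Figure D1:**
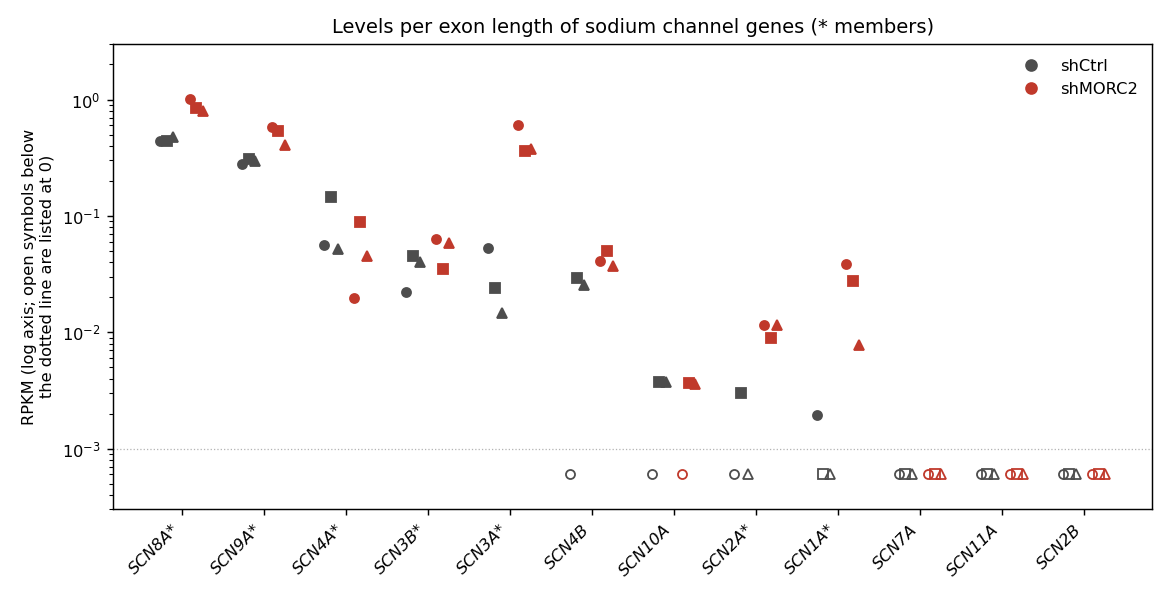
RPKM of 12 sodium channel genes on a logarithmic axis, with a point for each of the 3 shCtrl and 3 shMORC2 libraries (circle, square and triangle for replicates 1, 2 and 3) and open symbols below the dotted line for values listed at 0. SCN8A is highest in all 6 libraries, and the SCN3A points move from near the level of SCN3B in shCtrl to the level of SCN9A in shMORC2.

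SCN8A encodes Nav1.6, the alpha subunit of the axon initial segment and nodes of Ranvier. It gave 259, 252 and 274 counts in shCtrl and 605, 494 and 476 counts in shMORC2, or 5.90, 5.95 and 6.66 against 13.6, 11.9 and 11.2 CPM. Every shMORC2 library was above every shCtrl library, and the log2 fold change was 0.99 (SE 0.12), a 1.98-fold higher level. SCN9A encodes Nav1.7, the channel of sensory neurons whose loss abolishes pain. It gave 124, 135 and 130 counts in shCtrl and 260, 234 and 182 in shMORC2, or 2.83, 3.19 and 3.16 against 5.86, 5.62 and 4.27 CPM. The groups of SCN9A did not overlap either, at a log2 fold change of 0.78 (SE 0.16), and replicate 3 was the lowest of the shMORC2 libraries for both genes.

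SCN3A encodes Nav1.3, an alpha subunit of the embryonic brain that is low in the adult, and it had the largest log2 fold change of the 5 members tested. It gave 22, 10 and 6 counts in shCtrl against 258, 149 and 158 in shMORC2, or 0.501, 0.236 and 0.146 against 5.81, 3.58 and 3.71 CPM. Replicate 1 was the highest library in each group, and even the highest shCtrl library was far below the lowest shMORC2 library. The log2 fold change was 3.86 (SE 0.335), with a 95% interval of 3.21 to 4.52, and it was 4.49 without shCtrl replicate 1. The shCtrl level of SCN3A rests on 6 to 22 counts per library. On the log2(RPKM + 1) scale, which compresses the changes of genes far below 1 RPKM, the differences were 0.48 for SCN3A, 0.38 for SCN8A and 0.21 for SCN9A.

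SCN1A and SCN2A encode Nav1.1 and Nav1.2, the alpha subunits of inhibitory and excitatory neurons of the brain, and both had too few counts for the test. SCN1A gave 1, 0 and 0 counts in shCtrl and 20, 14 and 4 in shMORC2. SCN2A gave 0, 2 and 0 counts in shCtrl and 8, 6 and 8 in shMORC2. The groups did not overlap for either gene, but each of the shCtrl libraries lay under the floor of 3 counts. Summed over the libraries and divided by depth, the ratio of shMORC2 to shCtrl was 37.6 for SCN1A (38 against 1 counts, exact 95% counting interval 6.36 to 1524) and 10.9 for SCN2A (22 against 2 counts, interval 2.68 to 95.5). These intervals cover counting error alone and take every count as an independent read. Low counts were mostly even, so the intervals may be too narrow.

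The remaining 2 members overlapped between the groups. SCN4A encodes Nav1.4, the channel of skeletal muscle. It gave 20, 50 and 18 counts in shCtrl and 7, 31 and 16 in shMORC2, at a log2 fold change of -0.71 (SE 0.52, 95% interval -1.72 to 0.31). Replicate 2 was the highest library in both groups for SCN4A, and the log2 fold change ranged from -1.37 without shMORC2 replicate 2 to -0.080 without shCtrl replicate 2, so its size rests on single libraries. SCN3B encodes the beta-3 subunit, which is coexpressed with alpha subunits in brain and heart. It gave 9, 18 and 16 counts in shCtrl and 26, 14 and 24 in shMORC2, at a log2 fold change of 0.55 (SE 0.40, interval -0.24 to 1.34), which ranged from 0.28 without shCtrl replicate 1 to 0.76 without shMORC2 replicate 2. The SCN3B interval holds both no difference and the log2 fold change of SCN8A.

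**Figure D2:**
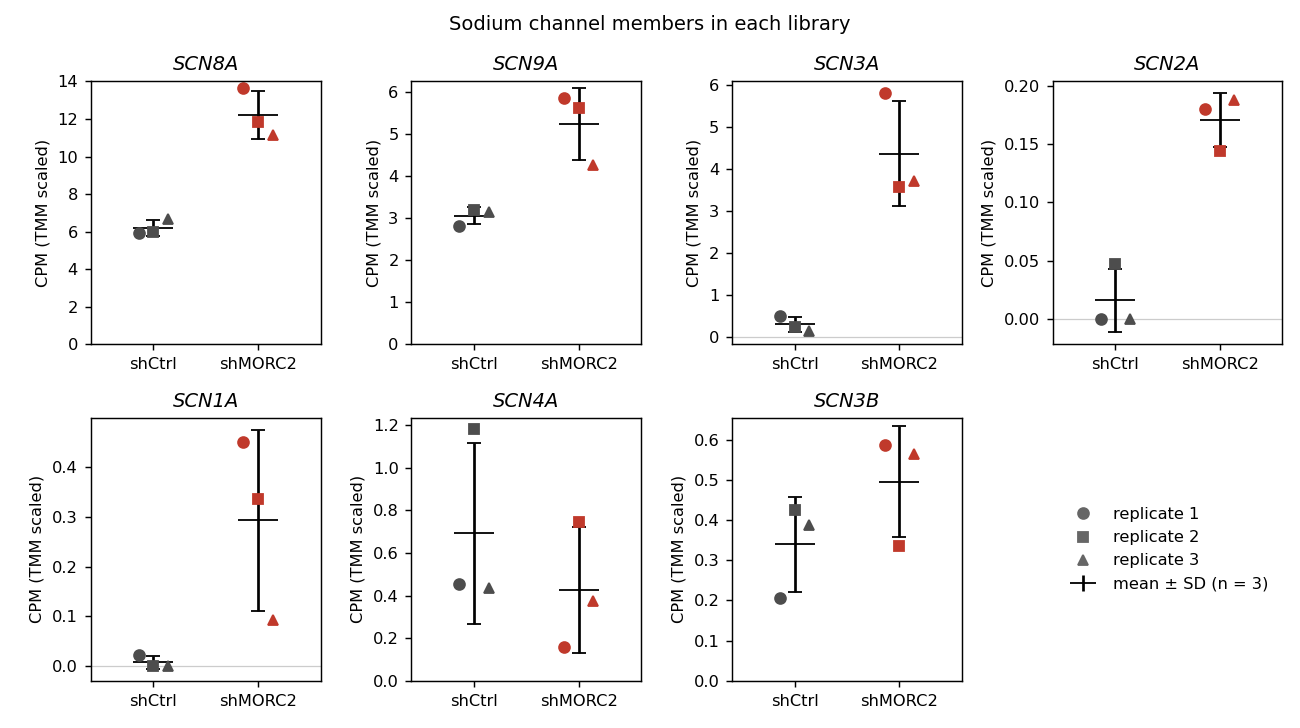
CPM of each of the 7 members, a panel per gene with its own linear axis, with a point for each library and the mean ± SD of the 3 libraries of shCtrl and shMORC2. The groups are apart for SCN1A, SCN2A, SCN3A, SCN8A and SCN9A and overlap for SCN4A and SCN3B.

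Counted over the set, 3 of the 5 members tested, SCN3A, SCN8A and SCN9A, had all shMORC2 libraries above all shCtrl libraries. Of all genes tested 25.1% did, and 50.3% were apart in either direction. The count of members restates how they were picked. The median log2 fold change of the 5 was 0.78 beside -0.00557 for all genes tested. The members' CPM summed to 9.92, 11.03 and 10.8 in shCtrl and to 26.7, 22.6 and 20.4 in shMORC2, with means of 10.6 ± 0.587 and 23.2 ± 3.19 CPM (SD, n = 3), 2.20-fold higher. SCN3A supplied 1.35% to 5.06% of that sum in shCtrl and 15.8% to 21.8% in shMORC2. Without SCN3A the sums were 10.3 ± 0.757 and 18.9 ± 2.10 CPM, 1.83-fold higher.

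None of the 5 SCN genes compared had enough counts for the test. SCN4B, the beta-4 subunit gene, had 0, 7 and 6 counts in shCtrl and 10, 12 and 9 in shMORC2, a ratio of summed counts of 2.36 (exact 95% counting interval 1.20 to 4.91). SCN10A, the gene of the sensory neuron channel Nav1.8, had at most 1 count in any library.

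The sequences before an annotated transcript start are shown for 4 members to set the base composition beside the levels, since a mammalian promoter may be rich or poor in the dinucleotide CG. Of the 7 members, 4 had an entry in the RefSeq promoter table (GRCh38.p14), namely SCN8A and SCN9A with 1 start each and SCN1A and SCN2A with 2 each. In the 250 bases before the start, SCN8A held 45 CG dinucleotides at 85.6% G or C and SCN9A 22 at 74.0%, while the starts of SCN1A held 1 and 2 and those of SCN2A held 1 each. The median of the 35116 promoters of the table was 11, and 0.589% of them held at least as many as SCN8A, 28% at least as many as SCN9A and 93.9% at least as many as the SCN1A start shown. The starts shown for SCN8A, SCN1A and SCN2A lie inside the gene spans used for counting. The other starts of SCN1A and SCN2A lie at the upstream ends of those spans, and GENCODE v44 starts SCN2A further upstream, at 165194993. The motif searched was CG, which reads the same on both strands, and the lines below give the stretch of each window without an annotated exon of the gene, 5′ to 3′ on the gene's strand, with every CG in capitals.
SCN8A, chr12:51591000-51591223, plus strand: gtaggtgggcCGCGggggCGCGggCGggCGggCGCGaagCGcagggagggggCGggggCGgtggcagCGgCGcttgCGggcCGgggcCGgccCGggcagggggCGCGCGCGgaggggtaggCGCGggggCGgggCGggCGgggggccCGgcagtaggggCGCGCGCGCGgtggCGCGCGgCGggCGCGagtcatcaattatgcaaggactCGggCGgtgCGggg
SCN9A, chr2:166376002-166376194, minus strand: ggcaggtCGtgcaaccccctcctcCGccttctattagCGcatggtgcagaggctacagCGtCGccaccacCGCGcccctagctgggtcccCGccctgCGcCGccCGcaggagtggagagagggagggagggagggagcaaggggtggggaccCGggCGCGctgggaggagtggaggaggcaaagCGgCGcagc
SCN1A, chr2:166128040-166128270, minus strand: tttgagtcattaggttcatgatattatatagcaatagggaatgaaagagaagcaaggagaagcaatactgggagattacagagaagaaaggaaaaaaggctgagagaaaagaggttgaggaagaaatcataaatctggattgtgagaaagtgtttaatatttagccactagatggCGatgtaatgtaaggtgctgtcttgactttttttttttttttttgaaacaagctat
SCN2A, chr2:165240810-165241059, plus strand: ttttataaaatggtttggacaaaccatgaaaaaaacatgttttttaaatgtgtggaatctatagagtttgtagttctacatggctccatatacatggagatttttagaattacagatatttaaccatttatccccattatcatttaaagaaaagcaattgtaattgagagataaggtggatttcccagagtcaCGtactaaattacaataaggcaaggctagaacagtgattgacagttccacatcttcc
SCN8A and SCN9A, the CG-rich pair, were the most expressed members in shCtrl, and SCN1A and SCN2A, the CG-poor pair, were the least expressed. The comparison genes followed that order in part. SCN4B, the most expressed of them in shCtrl, held 17 CG, and SCN10A and SCN2B held 0. The starts of SCN11A held 2 and 21 CG and those of SCN7A held 0 and 10, and neither gene had a count in any library.

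Of the 7 members, 4 lie near each other on chromosome 2 in GRCh38, where sodium channel genes form an old tandem cluster, SCN3A at chr2:165087522-165204067 (minus strand), SCN2A at chr2:165239372-165392732 (plus), SCN1A at chr2:165989160-166149214 (minus) and SCN9A at chr2:166195185-166375993 (minus). The interval from SCN3A to SCN9A spans 1288.5 kb. In all 4 the shMORC2 libraries lay above the shCtrl libraries, as in 25.1% of all genes tested, but the members were picked on these values. SCN1A and SCN2A were not tested, and their shCtrl libraries lay under the floor of 3 counts. SCN7A lies beyond SCN9A at chr2:166403573-166494247 (minus) and had no count in any library. It is included in the other genes near these members, counted next. Within 500 kb of them the count table had 21 other genes, of which 7 could be tested, 1 with an adjusted p under 0.05 and higher, and 3 lower (57.1% against 39.5% of all genes tested). CSRNP3, which lies between SCN2A and SCN1A, gave 144, 130 and 139 counts in shCtrl and 202, 208 and 180 in shMORC2, and rose (log2 fold change 0.50, SE 0.14, edgeR adjusted p = 0.0135). TTC21B, an intraflagellar transport gene next to SCN1A, fell at -0.30 (SE 0.09, edgeR adjusted p = 0.0203), its antisense gene TTC21B-AS1 fell at -0.55 (SE 0.18, edgeR adjusted p = 0.0236), and COBLL1 fell at -0.59 (SE 0.12, edgeR adjusted p = 0.00163). These calls were lost in 6 of 15 alternative fits for TTC21B, 5 of 15 for TTC21B-AS1, 3 of 13 for CSRNP3 and 1 of 13 for COBLL1, with adjusted p-values of up to 0.117, 0.119, 0.127 and 0.0843 over the alternatives. GALNT3, a glycosyltransferase gene inside the interval, was at 351 to 437 counts in shCtrl and 418 to 466 in shMORC2 (log2 fold change 0.11, SE 0.13, edgeR adjusted p = 0.523). Genes tested inside the interval thus differed in direction.

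**Figure D3:**
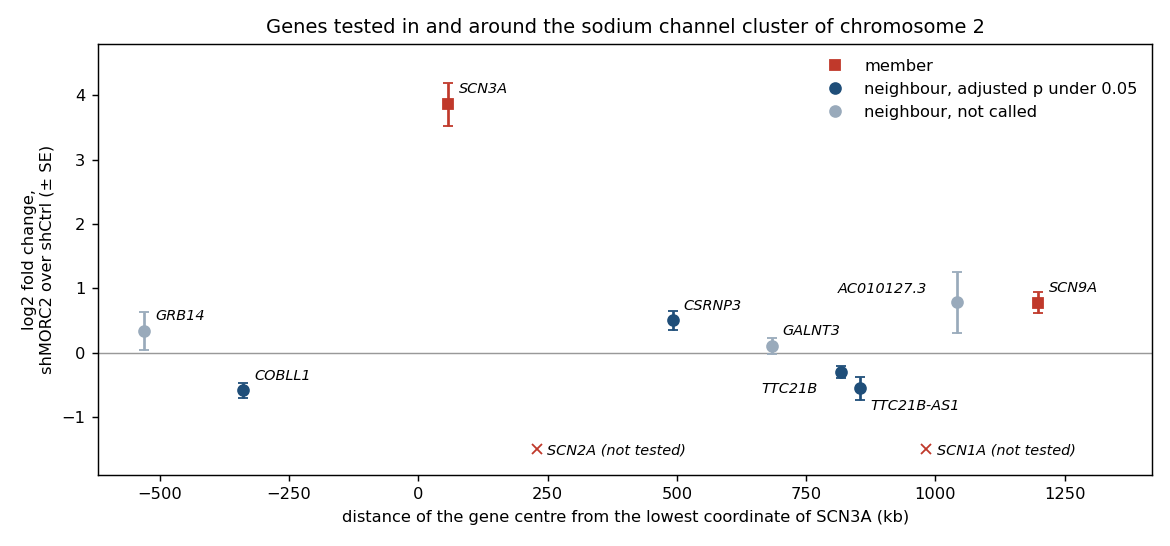
Log2 fold change (shMORC2 over shCtrl, ± SE) of the genes tested within 500 kb of the 4 members on chromosome 2, against the distance of each gene's centre from the lowest coordinate of SCN3A in kb. SCN3A lies at 3.86 and SCN9A at 0.78, the neighbors between -0.59 and 0.78, and crosses at the foot mark SCN2A and SCN1A, which had too few counts to test.

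The other 3 members stand alone. SCN8A lies at chr12:51590266-51812864 (plus), SCN4A at chr17:63938554-63972918 (minus) and SCN3B at chr11:123629187-123655244 (minus). Near SCN8A, 26 of 43 genes were tested, 9 higher and 5 lower (53.8% against 39.5% of all genes tested). The hair keratin genes KRT81 and KRT86 rose at 1.11 and 1.08 (edgeR adjusted p = 0.000113 and 0.000172). KRT81 lies inside the span of KRT86 on the opposite strand, so their counts may not be separate. The keratin gene KRT80 fell at -0.77 (edgeR adjusted p = 0.00165), and NR4A1, whose groups overlapped, fell at -0.88 (edgeR adjusted p = 0.0174). Near SCN4A, 26 of 44 genes were tested, 12 higher and 2 lower (53.8%), among them the potassium channel gene KCNH6 at 2.38 (SE 0.57, edgeR adjusted p = 0.00506) and MILR1 at -1.87 (edgeR adjusted p = 2.37e-05). Near SCN3B, 4 of 30 genes were tested, 1 higher and 2 lower (75%), with VWA5A higher at 0.95 (SE 0.18, edgeR adjusted p = 0.00125), and GRAMD1B, a sterol transfer gene next to it, fell from 1520, 1582 and 1338 to 451, 421 and 403 counts, at -1.81 (SE 0.09, edgeR adjusted p = 4.18e-08). Over the 4 loci 63 of 138 neighbors were tested, 23 higher and 12 lower (55.6%), with a median log2 fold change of 0.17.

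Overlapping and similar genes limit what the member counts can separate. Exons of genes on the opposite strand cover 3.89% of the exon bases of SCN1A and 4.93% of SCN9A (both AC010127.3), 4.51% of SCN3A (AC013463.2) and 6.52% of SCN8A (RP11-923I11.3), and the strand setting of the counting is not given in the sources used here. AC010127.3 had 11, 6 and 11 counts in shCtrl and 23, 18 and 8 in shMORC2 against 20, 14 and 4 of SCN1A in shMORC2. AC013463.2 had 5, 2 and 0 counts beside the 22, 10 and 6 of SCN3A in shCtrl, on which the SCN3A fold change rests, and 17, 4 and 5 beside 258, 149 and 158 in shMORC2. RP11-923I11.3 had 6 to 14 counts in shCtrl and 17 to 26 in shMORC2, beside at least 252 of SCN8A in every library. Of all 50-base stretches of the canonical transcripts, 5.79% of SCN3A, 4.98% of SCN2A, 3.68% of SCN9A and 2.28% of SCN1A also occur in another sodium channel gene, and none of SCN4A, SCN8A or SCN3B do. The small counts of SCN2A and SCN1A, beside the larger ones of SCN3A and SCN9A, are therefore uncertain. Low counts were mostly even, 65.2% to 68.5% of the counts from 1 to 20 in each library, so a count may stand for fewer independent fragments. Of the 38 member counts above 0, which include larger counts of up to 605, 78.9% were even.

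No event of the splicing table lay in the 7 members or in the 5 SCN genes compared with them, which says only that none was listed there among its 1449 events, of which 853 were skipped exons. The 2 groups of that table carry no names.

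Genes whose products bind or modify sodium channels were read beside the members. Of 22 such partners 20 could be tested, 8 higher and 3 lower (55% against 39.5% of all genes tested), with a median log2 fold change of 0.20. FGF12, an intracellular FGF that binds the carboxyl terminus of alpha subunits and shifts their inactivation, gave 33, 13 and 21 counts in shCtrl and 135, 103 and 84 in shMORC2, a 4.73-fold higher level (log2 fold change 2.24, SE 0.30, edgeR adjusted p = 7.21e-05). S100A10, known for carrying Nav1.8 to the membrane, rose at 0.92 (SE 0.10, edgeR adjusted p = 1.97e-05), though the Nav1.8 gene SCN10A had at most 1 count in any library. CALM3, a calmodulin gene, rose at 0.66 (SE 0.08, edgeR adjusted p = 6.00e-05). GPD1L, whose product alters sodium current, fell at -0.49 (SE 0.11, edgeR adjusted p = 0.00424). NEDD4L, a ubiquitin ligase that removes sodium channels from the membrane, fell from 3106, 3288 and 3137 to 2506, 2360 and 2433 counts, at -0.40 (SE 0.07, edgeR adjusted p = 0.000825). NEDD4, a related ligase gene among the partners, rose from 880, 747 and 633 to 1257, 1015 and 906 counts, at 0.48 (SE 0.12, edgeR adjusted p = 0.00661). CAMK2D, a kinase that phosphorylates sodium channels, was at -0.23 (SE 0.09) with an edgeR adjusted p of 0.0498, a call that held in 6 of 15 alternative fits. Transcript levels do not show channel protein or current.

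Other cation channel families moved in both directions, as did all genes tested (19.9% higher and 19.6% lower). Of 29 voltage-gated potassium channel genes 12 were tested, 2 higher and 4 lower (50% against 39.5% of all genes tested, median log2 fold change 0.0038). KCNH6 at 2.38 and KCNB2 at 0.91 (edgeR adjusted p = 0.0140) were among the higher. KCNC4 at -1.14 (edgeR adjusted p = 1.03e-05) and KCNQ5 at -0.76 (edgeR adjusted p = 0.0286) were among the lower. The groups of KCNQ5 overlapped, with 209 counts in shMORC2 replicate 1 and 191 in shCtrl replicate 3, and its call was lost in 5 of 13 alternative fits, with an adjusted p of up to 0.192, that of KCNB2 in 3 of 13 and that of KCNH6 in 1 of 12. Of 10 voltage-gated calcium channel genes 7 were tested, 1 higher and 1 lower (28.6% against 39.5% of all genes tested). CACNA1C, the L-type channel of heart and smooth muscle, was higher at 1.59 (SE 0.18, edgeR adjusted p = 2.12e-05). CACNA1H, a T-type channel, was lower at -0.52 (SE 0.10, edgeR adjusted p = 0.00158). With the replicate number as a block the calcium channel calls were 2 higher and 2 lower, where 49% of all genes tested were called. Of the 4 epithelial sodium channel genes, a separate, amiloride-sensitive family, edgeR tested 2 and called 0, with 0 at an unadjusted p under 0.05 and 0 in DESeq2. SCNN1A was at 4814 to 4914 counts in shCtrl and 4629 to 5446 in shMORC2 (log2 fold change 0.055, SE 0.07, edgeR adjusted p = 0.593).

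**Figure D4:**
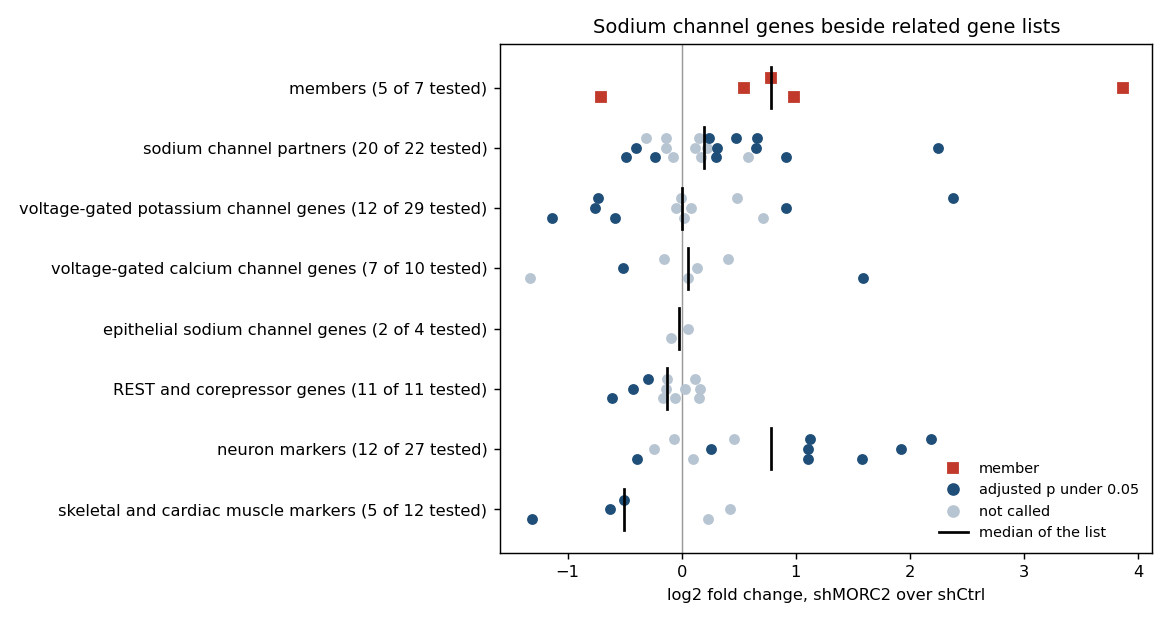
Log2 fold change (shMORC2 over shCtrl) of the genes tested in the sodium channel lists and the comparison lists, a point per gene, with the bar at each list's median. The 5 members have a median of 0.78, the neuron markers of 0.78, the partners of 0.20 and the muscle markers of -0.51.

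REST is the repressor that binds the NRSE element of SCN2A and of many other neuronal genes. Of REST and its corepressors all 11 were tested and 3 fell (27.3% against 39.5% of all genes tested), RCOR3 at -0.61 (SE 0.15, edgeR adjusted p = 0.00597), RCOR2 at -0.43 (SE 0.09, edgeR adjusted p = 0.00230) and the demethylase gene KDM1A at -0.29 (SE 0.08, edgeR adjusted p = 0.00873), while the replicate block gave 2 higher and 4 lower, where it called 49% of all genes tested. REST itself had 1869, 1634 and 1560 counts in shCtrl and 1822, 1419 and 1321 in shMORC2, which overlapped (log2 fold change -0.17, SE 0.10, edgeR adjusted p = 0.216).

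Markers of the cells that normally use these channels moved with the members in part. Of 27 neuron markers 12 were tested, 7 higher and 1 lower (66.7% against 39.5%), with a median log2 fold change of 0.78. STMN3, a microtubule regulator of neurons, rose at 2.18 (SE 0.13, edgeR adjusted p = 1.46e-07), SCG3 at 1.92 (SE 0.49, edgeR adjusted p = 0.00696) and the granin gene CHGB at 1.58 (SE 0.11, edgeR adjusted p = 7.34e-07), and SYT1 fell at -0.39 (SE 0.07, edgeR adjusted p = 0.00104). The neuron-defining genes STMN2, SYT4 and ELAVL4 had no count in any library, and the summed level of the list was 503 to 578 CPM in shCtrl and 563 to 685 CPM in shMORC2. Of 12 muscle markers 5 were tested and 3 fell (60%, but 1 when replicate 2 of either group or replicate 3 of shMORC2 was left out), led by TNNT2, cardiac troponin T, at -1.31 (SE 0.18, edgeR adjusted p = 0.000100), with sums of 43.5 to 56.8 CPM in shCtrl and 30.8 to 39.2 CPM in shMORC2 and no count of MYL1 in any library. The part of these cell type programs in the sodium channel values was not tested.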

How the data were processed

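Polyadenylated RNA of 6 SW480 libraries (3 shCtrl, 3 shMORC2) was sequenced by the authors, whose processing notes name Trimmomatic 0.36, STAR 2.5.3a, featureCounts of Subread 1.5.1, edgeR 3.12.1 and the build GRCh38 without stating their roles. The annotation release, the strand setting and the handling of the molecular identifiers that the methods mention are not given in the sources used here. The authors deposited raw counts per gene symbol and RPKM values scaled to exon length and library depth, and these 2 tables gave all gene levels. The authors also deposited a table of splicing events, per their methods from rMATS, which holds inclusion and skipping read counts and inclusion levels (fraction) of 2 unnamed groups, with a length of each form used to correct the level, entered here as a score. Its columns of p-values, FDR and level differences are the authors' own comparison and were not used, and neither was a summary of events by type. Of the columns of values per library, 0 belonged to samples outside the series.

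Counts were fitted in edgeR 4.0.16 (R 4.3.3) with filterByExpr, TMM factors and the quasi-likelihood test of shMORC2 against shCtrl, and p-values were adjusted by Benjamini-Hochberg over 21005 genes, with calls at an adjusted p under 0.05. CPM used TMM-scaled library sizes. The script was tested on simulated data. Genes with too few counts for the fit were given by the ratio of summed counts with an exact 95% binomial interval, and a floor of 3 counts was used for genes at 0. The 7 members and all gene lists were chosen with earlier results of these data known. Genes named beside the members and the other SCN genes were the called genes of each list, and of the genes within 500 kb of a member, with the largest log2 fold changes (up to 3 per direction), while other genes were named for their known role or place after their values were seen. Some genes of the lists are not reported here. Alternatives were DESeq2 1.42.0, no TMM, other filters, limma 3.58.1 on log2(RPKM + 1) and log2(RPKM + 0.1), leaving out each library, and a block for the replicate number. Same-numbered libraries deviated together (correlations of 0.333, 0.165 and 0.149 for replicates 1, 2 and 3). The block therefore took the numbers as pairs, from the values alone, while the main test left the libraries unpaired. All 6 within-group pairs of libraries were further apart than counting noise (chi-square of 6.35 to 21.5 per degree of freedom).
Gene positions are those of the count table, 1-based on GRCh38, and exons were compared with GENCODE v44, which holds an overlapping entry of the same symbol for 99.86% of 33560 genes. Read counts limit precision. The intervals of summed counts and the floors cover counting error only, with every count taken as independent.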

Additional observations from a re-analysis of the deposited data

How the results depend on the processing

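MORC2 kept its direction and call in all 15 alternative fits (log2 fold change -0.74 to -0.55). None of the log2 fold changes of SCN3A, SCN4A, SCN8A, SCN9A and SCN3B changed direction in the alternatives that gave a value. With every gene of at least 1 count kept, SCN1A and SCN2A entered the fit, and 6 colon epithelium markers and 2 fibroblast markers were called. With the replicate block, 10287 genes were called (49% of those tested), and the calls were 4 calcium channel genes, 6 REST and corepressor genes, 7 colon epithelium markers and 2 fibroblast markers. The block changed no other list's count by more than 1.5 times. On log2(RPKM + 1) with no filter, 5454 genes were called. The 3 limma fits called 2, 2 and 2 potassium channel genes, 1, 1 and 1 muscle markers and 1, 1 and 0 colon epithelium markers, and the 2 fits with a mean RPKM of at least 1, where weak genes are not tested, called 1 and 1 calcium channel genes, 0 and 0 fibroblast markers and 20 and 20 genes near the members, and with log2(RPKM + 1) 7 partners. Halving all counts to allow for read pairs, an alternative chosen after seeing the data like the leaving out of SCN3A, called 8193 genes and 0 fibroblast markers. The members' summed level changed by a log2 ratio of 0.87 without SCN3A and by 1.13 with it. The alternatives for splicing were not run, since no event lay in the genes reported. Where no construction is named, the cause was not tested.

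Leaving out each library in turn gave 6268 to 8433 genes called, 0 to 0 epithelial sodium channel genes, 8 to 12 partners, 5 to 5 potassium and 2 to 2 calcium channel genes, 3 to 4 REST and corepressor genes, 7 to 8 neuron markers, 1 to 3 muscle markers, 2 to 6 colon epithelium markers, 1 to 2 immune and 1 to 2 fibroblast markers, and 25 to 33 genes near the members. The muscle count was 1 when replicate 2 of either group or replicate 3 of shMORC2 was left out, the colon count 6 without shMORC2 replicate 1, the immune count 2 without shCtrl replicate 1 or shMORC2 replicate 1, and the fibroblast count 2 without shCtrl replicate 1. The summed members' log2 ratio was 1.02 to 1.22. With 3 libraries per group and under 60 counts per library, differences of SCN1A, SCN2A, SCN4A and SCN3B are limited by depth.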

Other observations

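Of the 16205 genes whose counts averaged 50 or more, the profiles over the 6 libraries most like that of SCN3A were those of MIAT, a long noncoding RNA (root mean square distance of 0.125 on the centred log2(CPM + 0.5) scale), FAM198B (0.164) and CTA-373H7.7 (0.173). MIAT gave 345, 219 and 201 counts in shCtrl and 2382, 1686 and 1660 in shMORC2, with replicate 1 as the highest library of each group, as for SCN3A. FAM198B gave 4, 2 and 0 against 157, 93 and 80 counts, so its shCtrl values lie around the floor of 3 counts and show no order. Closest to SCN8A were FAM3C2 (0.0560), TRBC1 (0.0575), a T-cell receptor constant region gene, and PAM (0.0603), a peptide-amidating enzyme gene with 6270, 6361 and 6065 counts in shCtrl and 13270, 11448 and 11291 in shMORC2. Closest to SCN9A were RP11-256I23.2 (0.0683), RP11-480I12.5 (0.0816) and RP11-134K13.2 (0.0825). The genes listed for SCN8A and SCN9A had similar fold changes, 1.90 to 2.00 beside 1.98 and 1.82 to 1.88 beside 1.72. Those listed for SCN3A did not, with 7.41 for MIAT, 51.12 for FAM198B and 8.585 for CTA-373H7.7 beside 14.55. The added 0.5 compresses changes of genes below it in shCtrl, where SCN3A averaged 0.294 CPM and FAM198B 0.0461 CPM. A like profile over 6 libraries in 2 groups does not by itself link genes.

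Markers of the line and of other cells gave the following values. Of 12 colon epithelium markers 11 were tested and 3 called (27.3% against 39.5% of all genes tested), with KRT20 at 0.75 and CDX2 at 0.47 higher and LGR5 at -1.10 lower in shMORC2. The groups of CDX2 overlapped, and its call was lost in 6 of 15 alternative fits (edgeR adjusted p = 0.0158, up to 0.153 over the alternatives). The list summed to 20137 to 26173 CPM in shCtrl and 19182 to 26070 CPM in shMORC2. Of 8 immune markers 4 were tested, and CD68, which epithelial cells also express, rose at 1.27 (edgeR adjusted p = 0.000296), with list sums of 38.5 to 47.8 CPM in shCtrl and 59.5 to 111 CPM in shMORC2 and no count of MS4A1 in any library. Of 7 fibroblast markers 4 were tested, and THY1, a surface protein of fibroblasts and neurons, gave 0, 4 and 0 counts in shCtrl and 14, 36 and 34 in shMORC2 (log2 fold change 4.26, SE 0.78, edgeR adjusted p = 0.000831), with list sums of 19.99 to 20.9 CPM in shCtrl and 23.5 to 25.8 CPM in shMORC2. Their part in the sodium channel values was not tested.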
